A study of Homo sapiens with 6 samples.

Results

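The genes described here are 9 genes of antioxidant and carbonyl metabolism: the aldo-keto reductases AKR1C1, AKR1C2, AKR1C3 and AKR1B10, the glutathione peroxidase GPX2, and NQO1, TXNRD1, GCLM and SLC7A11. They were chosen by the measured line difference, because AKR1C1 and GPX2 read far lower in the line labelled YAP(5SA) than in the GFP line. The remaining members were named as further AKR genes or as known targets of the transcription factor NRF2. The 9 are among 19090 genes with a named probe, and 14 probes carry them. For all members the difference between the lines is therefore a description, and no p is given for it.

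The samples were H358 cells, an established human bronchioalveolar carcinoma cell line. One H358 line carries the label YAP(5SA), a mutant of the transcriptional coactivator YAP that the Hippo kinases can no longer inhibit by phosphorylation, and the control line carries GFP. Each was given vehicle or one of the inflammatory cytokines IL-1b and TNFa for 60 min, and each of the 6 conditions was measured on 1 array without a replicate. The labels write the cytokine dose with a unit that cannot be meant, so the dose is taken as unknown. With 1 line of each kind, YAP(5SA) and anything else that differs between the lines cannot be told apart. In bulk RNA, fewer cells that express a gene and less RNA per cell cannot be told apart either.

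NRF2, encoded by NFE2L2, is held at a low level by KEAP1, which presents it to a CUL3 ubiquitin ligase. Oxidants and electrophiles block that degradation, and NRF2 then binds antioxidant response elements together with small MAF proteins, in competition with BACH1. Its targets make and recycle glutathione and thioredoxin, supply NADPH and reduce quinones and carbonyls. In lung cancers with lesions of this pathway, AKR1C genes and AKR1B10 are often abundant.

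The deposited values are linear intensities, one per probe and array, and differences are given on the log2(intensity + 16) scale. Median intensities of the arrays ran between 335.2 and 398.1, and between 10 and 1146 probes per array lay below 0. Across all genes the median YAP(5SA) minus GFP difference was -0.10 in the vehicle pair, -0.07 in the IL-1b pair and 0.17 in the TNFa pair. The YAP1 probe read lower in the line labelled YAP(5SA), by -0.73 ± 0.21 (limma SE, 3 pairs, adjusted p = 0.0120). Its position in the transcript is unknown, so it checks nothing about a transgene. Of the lung epithelial markers, KRT7, KRT8, KRT18, CDH1 and EPCAM passed the filter on dim probes, while KRT19, NKX2-1, SFTPB, SFTPC and NAPSA did not. In the YAP(5SA) line EPCAM was called lower (-1.03), and CDH1 (1.65) and KRT18 (0.63) higher, in limma over 3 pairs; the call of EPCAM was lost without the IL-1b pair and that of KRT18 without the IL-1b or the TNFa pair. Of markers of other cell types, CD14 was called lower (-1.61) and PDGFRB higher (1.10), and MS4A1 was called higher with IL-1b (1.11) and TNFa (1.08). The summed intensity of 10 lung epithelial markers was 254860 to 309150 in the YAP(5SA) line and 144100 to 189750 in the GFP line. That of 6 leukocyte markers was 2818.6 to 3658.5 in the YAP(5SA) line and 5348.5 to 6029.8 in the GFP line, with the defining PTPRC and CD3E below the filter and no marker at 0 on all arrays. For 8 fibroblast and endothelial markers it was 2071.2 to 2660.8 in the YAP(5SA) line and 2238.8 to 2998.3 in the GFP line. Such sums follow the brightest genes and do not show a shift of a whole list. KRT18 read a log2 of 17.4 on the YAP(5SA) vehicle array, above KRT7 at 15.7. On the GFP vehicle array CD14 read 11.8, above CD68 at 10.8. The part of these markers in the results below was not tested.

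The AKR1C enzymes reduce ketosteroids, prostaglandins and other carbonyls with NADPH, and their genes lie side by side on chromosome 10. The brighter AKR1C1 probe read 5803, 5670 and 4779 in the YAP(5SA) line with vehicle, IL-1b and TNFa, against 191604, 196261 and 188338 in the GFP line. All 3 YAP(5SA) arrays lay below all 3 GFP arrays, and the 3 arrays of a line lay close together. The log2 difference was -5.15 ± 0.13 (SD over 3 pairs), which ranked 9 from the lowest of 12350 genes. The other AKR1C1 probe gave 2212, 2929 and 2490 in the YAP(5SA) line and 44530.0, 50627 and 38691 in the GFP line, a difference of -4.12 ± 0.19 (SD, 3 pairs). AKR1C1 inactivates progesterone, and both of its probes showed the same direction in every pair.

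AKR1C3, which makes testosterone and a form of prostaglandin F, had 3 probes. Its brightest probe read 21840.4, 23817 and 24186 in the YAP(5SA) line and 280886, 249527 and 275262 in the GFP line, a difference of -3.53 ± 0.15 (SD, 3 pairs). A second probe read 3950.2, 6907 and 5856 in the YAP(5SA) line and 178429, 184387 and 161582 in the GFP line, a difference of -5.00 ± 0.42 (SD, 3 pairs). The lines did not overlap on either probe, but the probes differed in size by more than the spread of the pairs. The third probe fell below the filter, with 46.2, 39.9 and 29.8 in the YAP(5SA) line and 53.5, 56.7 and 60.7 in the GFP line. Its difference was -0.43 ± 0.29 (SD, 3 pairs), so this gene's probes did not give 1 answer about size.

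Both AKR1C2 probes lay below the filter. AKR1C2 inactivates dihydrotestosterone. Its first probe read 33.5, 29.7 and 21.3 in the YAP(5SA) line and 295.2, 452.9 and 338.5 in the GFP line. The second read 33.5, -5.7 and -3.2 in the YAP(5SA) line and 178.1, 202.3 and 408.8 in the GFP line. All 3 YAP(5SA) arrays lay below all 3 GFP arrays on both probes. The YAP(5SA) values are close to the pseudocount or below 0, so the log2 differences of -3.09 and -3.49 (means of 3 pairs) are set by the pseudocount and give no measured size. AKR1C4, a liver enzyme of the same cluster and not a member, also had a probe below the filter, at 32.6, 37.7 and 25.6 in the YAP(5SA) line and 289.7, 343.2 and 244.9 in the GFP line. Transcripts of this cluster are much alike in sequence, probe sequences were not used here, and whether a probe reads more than 1 of these genes was not tested. AKR1C values are therefore uncertain as to which gene they measure.

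The likeness within the cluster reaches the promoters. RefSeq promoter windows were used on GRCh38.p14, from which the 250 bases upstream of each annotated start are considered. They are shown for AKR1C1 and AKR1C2 because they are nearly the same letters. AKR1C1 lies at chr10:4963165-4963414 on the plus strand and AKR1C2 at chr10:5003858-5004107 on the minus strand, each printed 5′ to 3′ with the stretch they share in capitals.
AKR1C1: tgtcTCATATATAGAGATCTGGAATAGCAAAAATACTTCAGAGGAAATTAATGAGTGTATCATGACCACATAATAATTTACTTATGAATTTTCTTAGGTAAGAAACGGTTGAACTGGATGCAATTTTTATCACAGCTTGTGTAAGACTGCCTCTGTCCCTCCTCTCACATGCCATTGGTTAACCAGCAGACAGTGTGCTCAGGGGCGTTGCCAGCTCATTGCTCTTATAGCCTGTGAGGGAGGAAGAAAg
AKR1C2: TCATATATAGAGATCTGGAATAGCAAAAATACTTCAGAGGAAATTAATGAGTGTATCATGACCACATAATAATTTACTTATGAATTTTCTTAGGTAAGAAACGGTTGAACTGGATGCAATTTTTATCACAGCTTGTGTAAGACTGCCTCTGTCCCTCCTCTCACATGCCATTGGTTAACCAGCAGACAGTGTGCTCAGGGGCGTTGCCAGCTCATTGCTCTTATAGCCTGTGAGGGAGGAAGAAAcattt
The shared run is 245 bases long, and 245 of 246 aligned bases are the same (99.59%). The AKR1C1 window matched the pair of AKR1C3 windows at 53.66% and 58.09% of aligned bases. All these alignments were made without gaps at the best offset. An inserted or lost base therefore lowers the figure, which does not measure how alike the AKR1C3 windows are.

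AKR1B10, which reduces retinaldehyde and lipid aldehydes, lies on chromosome 7, outside the AKR1C cluster. Its 1 probe read 5970, 3415 and 4753 in the YAP(5SA) line and 141949, 116321 and 170405 in the GFP line. The lines did not overlap, and the difference was -4.94 ± 0.32 (SD, 3 pairs), rank 11 from the lowest. AKR1B15, its close neighbour on that chromosome and a non-member, gave -0.43 ± 0.22 (limma SE, 3 pairs, adjusted p = 0.205). Line differences past 3 were thus read by AKR probes of both chromosomes.

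GPX2, an epithelial selenium-dependent peroxidase that reduces peroxides with glutathione, had the largest difference among the members. Its 1 probe read 71.6, 69.6 and 77.7 in the YAP(5SA) line and 9452, 9819 and 11059.9 in the GFP line. The log2 difference was -6.83 ± 0.07 (SD, 3 pairs), rank 5 from the lowest, and varied least among pairs of the 4 genes with differences past 3. The YAP(5SA) levels, at a mean log2 of 6.47, lie below the mean log2 of 7.794 that the filter demands, and the probe passed only through its GFP arrays. No detection flags were used, so whether the YAP(5SA) signal stands above background was not tested. The size and the rank depend on it and on the pseudocount: the difference was -7.09 with 1 and -6.21 with 64.

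**Figure D1:**
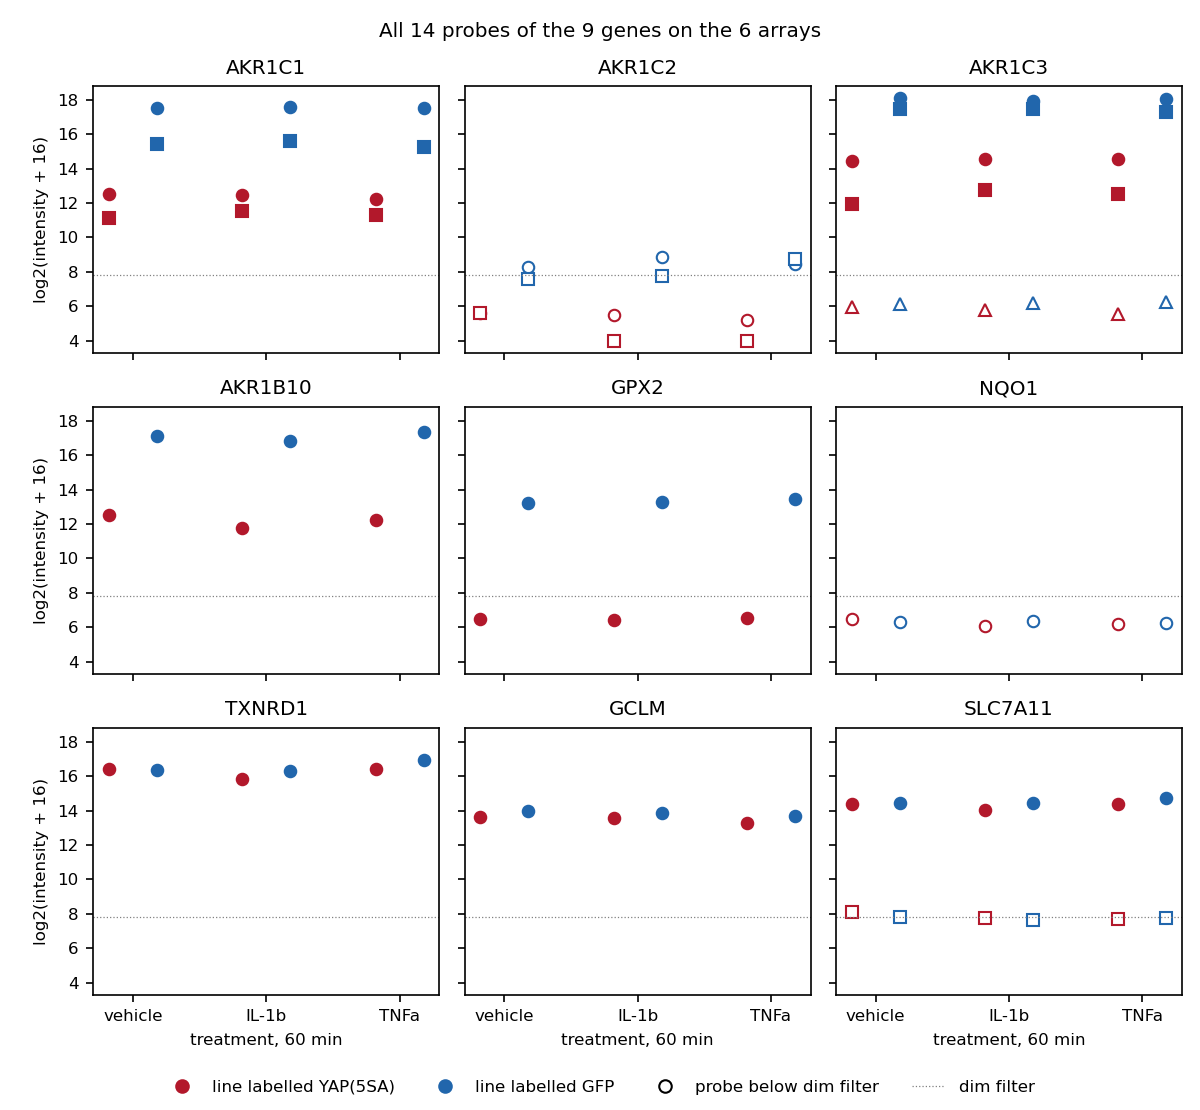
Each panel shows log2(intensity + 16) of every probe of a gene on the 6 arrays, with YAP(5SA) (red) left of GFP (blue) in each treatment and open symbols for probes below the filter on dim probes (dotted line, 7.794). AKR1C1, AKR1B10 and GPX2 are lower on all 3 YAP(5SA) arrays than on any GFP array, while NQO1 and TXNRD1 overlap. The only NQO1 probe lies below the filter in both lines, so its overlap does not show that NQO1 is unchanged.

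The second set of members read differently. TXNRD1, the cytosolic reductase that recycles thioredoxin, read 88608, 58295 and 88375 in the YAP(5SA) line and 83826, 80650 and 127357 in the GFP line. The lines overlap, and the difference was -0.31 ± 0.33 (SD, 3 pairs), with a rank of 2615 from the lowest. GCLM, the modifier subunit of glutamate-cysteine ligase, the first step of glutathione synthesis, read 12701, 12346 and 10100.2 in the YAP(5SA) line and 15835, 15035 and 13395 in the GFP line. Its difference of -0.34 ± 0.06 (SD, 3 pairs) was small but had the same sign in every pair, and the lines did not overlap.

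SLC7A11 is the cystine importer that supplies cysteine for glutathione. Its probe past the filter read 21780, 16624 and 21003 in the YAP(5SA) line and 22580, 22364 and 27510 in the GFP line, a difference of -0.29 ± 0.21 (SD, 3 pairs). The lines did not overlap. A second probe, below the filter, read 255.5, 196.3 and 193.8 in the YAP(5SA) line and 207.6, 182.5 and 195.9 in the GFP line, which overlap. NQO1, the quinone reductase often taken as the marker of NRF2 activity, had only 1 probe, below the filter, with 73.4, 51.4 and 56.4 in the YAP(5SA) line and 63.7, 66.2 and 60.7 in the GFP line. Its lines overlap, with a difference of -0.07 ± 0.23 (SD, 3 pairs), and the gene was not tested.

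Of the 9 genes, 7 had a probe past the filter, and 9 of the 14 probes passed it. Of those 7 genes, 4 were called lower and 0 higher in limma, where 8.91% of all 12350 genes were called lower and 7.9% higher. On 6 of the 7, all 3 YAP(5SA) arrays lay below all 3 GFP arrays, as they did for 14.4% of all genes. These counts include the values by which the members were chosen and support nothing. The members divide by size: AKR1C1, AKR1C3, AKR1B10 and GPX2 have differences between -3.53 and -6.83 on the log2 scale, and TXNRD1, GCLM and SLC7A11 between -0.29 and -0.34. Centring each array on its median leaves TXNRD1 at -0.22, GCLM at -0.25 and SLC7A11 at -0.20.

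Members GPX2, TXNRD1 and GCLM have the core of an antioxidant response element, TGACNNNGC searched on both strands, in the 250 bases upstream of an annotated start. Its first 4 letters are also those of the AP-1 site TGACTCA. It was found in 3 of the 7 members with a window, and in 3609 of 27305 gene symbols with one (13.2%). The capitals mark the match in GPX2 (chr14:64942746-64942995, minus strand), in both TXNRD1 windows (chr12:104215529-104215778 and chr12:104286782-104287031, plus strand) and in GCLM (chr1:93909431-93909680, minus strand).
GPX2: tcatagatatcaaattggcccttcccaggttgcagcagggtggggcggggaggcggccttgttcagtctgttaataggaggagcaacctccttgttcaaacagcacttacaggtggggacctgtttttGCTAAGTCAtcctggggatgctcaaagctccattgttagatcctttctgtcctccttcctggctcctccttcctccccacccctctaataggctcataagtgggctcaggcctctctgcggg
TXNRD1, first window: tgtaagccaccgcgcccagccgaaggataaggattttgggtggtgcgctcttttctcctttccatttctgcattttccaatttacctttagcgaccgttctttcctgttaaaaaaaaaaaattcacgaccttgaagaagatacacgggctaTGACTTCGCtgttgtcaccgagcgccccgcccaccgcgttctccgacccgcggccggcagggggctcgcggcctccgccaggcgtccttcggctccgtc
TXNRD1, second window: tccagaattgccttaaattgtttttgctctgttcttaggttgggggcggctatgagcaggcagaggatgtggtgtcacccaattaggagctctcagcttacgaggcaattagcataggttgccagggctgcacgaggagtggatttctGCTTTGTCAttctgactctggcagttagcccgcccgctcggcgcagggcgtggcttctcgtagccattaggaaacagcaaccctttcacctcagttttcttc
GCLM: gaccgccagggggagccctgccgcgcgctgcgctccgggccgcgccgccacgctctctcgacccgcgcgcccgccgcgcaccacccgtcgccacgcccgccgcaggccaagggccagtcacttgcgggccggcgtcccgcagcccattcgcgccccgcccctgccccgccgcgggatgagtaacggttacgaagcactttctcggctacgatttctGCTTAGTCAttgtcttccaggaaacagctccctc
The matches lie 122, 99, 102 and 34 bases upstream and read TGACTTAGC, TGACTTCGC, TGACAAAGC and TGACTAAGC on their own strand. Among the further NRF2 targets described next, 5 of the 18 with a window held a match (ME1, PGD, EPHX1, CBR1 and CYP4F11). The matching members have both large and small line differences. No match was found in these letters for AKR1C1, AKR1C2, AKR1C3 or NQO1.

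**Figure D2:**
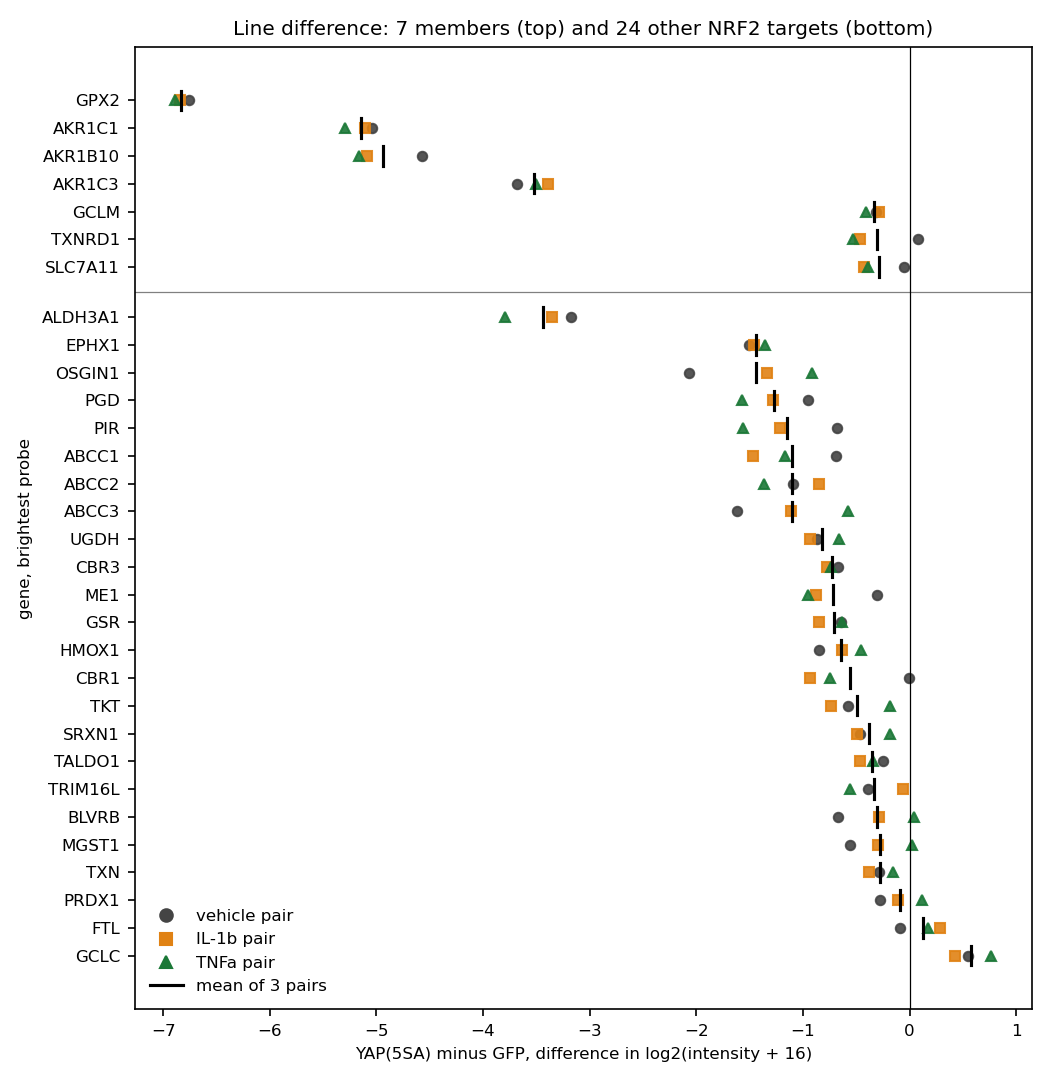
Points are the YAP(5SA) minus GFP difference in log2(intensity + 16) in the vehicle, IL-1b and TNFa pair, with the mean as a bar, for 7 members (top) and 24 other NRF2 targets (bottom). GPX2, AKR1C1, AKR1B10 and AKR1C3 stand left of -3, with ALDH3A1 as the sole other target there.

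Of 28 further NRF2 targets, 24 had a probe past the filter, 3 were not analysed here and CYP4F11 lay below it. The brighter CYP4F11 probe, for a fatty acid hydroxylase, read 54.4, 42.2 and 28.7 in the YAP(5SA) line and 208.5, 200.5 and 238.5 in the GFP line, which do not overlap. In limma, 13 were called lower and 1 higher in the YAP(5SA) line, beside the 8.91% and 7.9% of all genes given above. The median difference was -0.68, against -0.01 over all genes. On 17 of the 24 all 3 YAP(5SA) arrays lay below all 3 GFP arrays, as they did for 14.4% of all genes. This list was assembled with earlier results of these data known. ALDH3A1, an aldehyde dehydrogenase, fell by 3.44 ± 0.21 (SE, 3 pairs, adjusted p = 4e-16). Its intensities were 4049, 3317 and 3945 in the YAP(5SA) line and 36780, 33990 and 55052 in the GFP line. EPHX1, the microsomal epoxide hydrolase, fell by 1.44 ± 0.20 (adjusted p = 6.88e-07), and PGD, which makes NADPH in the pentose phosphate pathway, fell by 1.27 ± 0.21 (adjusted p = 9.96e-06).

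The other lower calls were OSGIN1 (-1.44), PIR (-1.15), the efflux pumps ABCC1 (-1.11), ABCC2 (-1.10) and ABCC3 (-1.10), UGDH (-0.82), CBR3 (-0.72), ME1 (-0.71), glutathione reductase GSR (-0.71) and heme oxygenase HMOX1 (-0.65). GCLC, the catalytic partner of GCLM, was called higher at 0.58 ± 0.20 (SE, 3 pairs, adjusted p = 0.0457), a call lost without any 1 pair. Not called were TXN, SRXN1, PRDX1, FTL, BLVRB, TKT, TALDO1, CBR1, TRIM16L and MGST1, with differences between -0.56 and 0.12. Of the 14 calls, 8 were kept whichever pair was left out. Without the IL-1b pair, GSR, CBR3, UGDH, ME1 and HMOX1 were lost, with adjusted p between 0.153 and 0.334. Their differences in that fit were still -0.64, -0.70, -0.77, -0.63 and -0.65. Lower calls over all genes also went from 1101 to 526 there, so these losses do not show that the differences rest on the IL-1b pair. HMOX1 was also lost without the vehicle pair (adjusted p = 0.116) and ME1 without the TNFa pair (adjusted p = 0.0695). CBR1 was called lower without the vehicle pair (-0.84) and TKT without the TNFa pair (-0.65).

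Of 10 regulators of NRF2, 7 were measured. Only NFE2L2 was called lower, at -0.59 ± 0.21 (SE, 3 pairs, adjusted p = 0.0476), with 0 called higher. Its intensities on the brighter probe were 15723, 26216 and 26786 in the YAP(5SA) line and 29756, 42835 and 29657 in the GFP line, which do not overlap. The other probe, not used for the call, read 11164, 12472 and 12894 in the YAP(5SA) line. In the GFP line it read 17843, 22005 and 19973, and the lines did not overlap there either. The call was lost without the vehicle or the IL-1b pair, with median centring, with no filter, with a pseudocount of 1 and with the probes ranked by mean intensity. KEAP1 (-0.02, adjusted p = 0.964), BACH1 (0.15), MAFG (0.25), RBX1 (-0.15), SQSTM1 (-0.20) and NFE2L1 (-0.05) were not called.

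**Figure D3:**
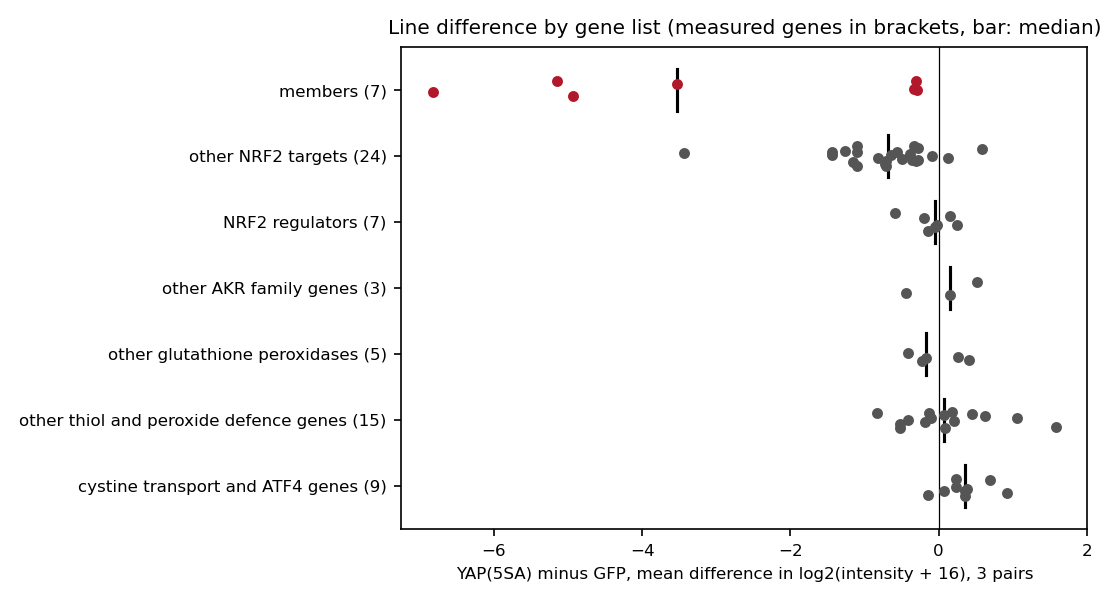
Each point is a measured gene's mean YAP(5SA) minus GFP difference in log2(intensity + 16) over 3 pairs, by gene list, with the list's median as a bar. The median of the 24 other NRF2 targets is -0.68, while the regulators, glutathione peroxidases and thiol defence genes have medians between -0.17 and 0.07.

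The measured relatives of GPX2 and of the AKR genes gave smaller differences. AKR1C4, given above, lay below the filter and is not among them, though its lines did not overlap. Its log2 levels were 5.60, 5.75 and 5.38 in the YAP(5SA) line and 8.26, 8.49 and 8.03 in the GFP line. That gap is wider than those of the measured AKR relatives, but the YAP(5SA) values are close to the pseudocount. Of 5 measured other glutathione peroxidases 0 were called, with a median of -0.17, and GPX1, GPX3, GPX4, GPX6 and GPX8 ranged between -0.42 and 0.42. Without the TNFa pair, GPX6 was called lower (-0.73, adjusted p = 0.0186) and so was AKR1B15 (-0.77, adjusted p = 0.0113). Of 3 measured other AKR genes 0 were called, AKR1E2 at 0.52 (adjusted p = 0.0817), AKR1B15 and AKR7A2 (0.16); AKR1E2 was called higher under quantile normalization and median centring, and with no filter 1 gene of this list was called lower. Among 15 thiol and peroxide defence genes, 1 was lower, catalase CAT (-0.83), and 3 were higher: the mitochondrial thioredoxin reductase TXNRD2 (1.59 ± 0.20, SE, 3 pairs, adjusted p = 9.82e-08), TXNRD3 (1.06) and PRDX6 (0.62). When 1 pair was left out, the calls of CAT and PRDX6 were kept only without the vehicle pair. Among 9 cystine transport and ATF4 genes, 0 were lower and 2 were higher, TRIB3 (0.92) and DDIT3 (0.69). When 1 pair was left out, the call of DDIT3 was kept only without the TNFa pair, and the difference was 0.35 without the vehicle pair (adjusted p = 0.355). SLC3A2, the partner chain of SLC7A11, gave 0.08.

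The IL-1b and TNFa responses were not used to choose the members and were tested over both lines. Of 7 measured members 0 were called with IL-1b and 0 with TNFa in limma, where 2.36% and 0.769% of all genes were called. At an unadjusted p under 0.05 there was 1 member with IL-1b and 0 with TNFa. The share of all genes past that unadjusted threshold was not counted, so these numbers cannot be set against a background. At the level of all 15536 probes, 0 of 9 member probes were called with either cytokine, against backgrounds of 2.17% and 0.702%. The largest mean response was that of AKR1B10 to IL-1b, -0.55 ± 0.25 (SE, 2 pairs, adjusted p = 0.303), -0.80 in the YAP(5SA) line and -0.29 in the GFP line. Its adjusted p lay between 0.105 and 1 over the 15 alternatives.

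GPX2 changed little within either line, by -0.03 with IL-1b and 0.10 with TNFa in the YAP(5SA) line, and by 0.05 and 0.23 in the GFP line. TXNRD1 gave -0.60 with IL-1b and 0.00 with TNFa in the YAP(5SA) line, against -0.06 and 0.60 in the GFP line. The second AKR1C3 probe gave 0.80 with IL-1b and 0.57 with TNFa in the YAP(5SA) line, against 0.05 and -0.14 in the GFP line. The difference between lines in a response has 1 array per condition and no test. The gene-level means of AKR1C1, AKR1C3, GCLM and SLC7A11 lay between -0.29 and 0.12 with either cytokine (adjusted p of 0.735 or above). None of the 6 other pathway lists had a gene called with either cytokine. With IL-1b their lowest adjusted p in limma were those of CBR1 (-0.82, adjusted p = 0.0891) and SOD2 (0.82, adjusted p = 0.0943). With TNFa the lowest was that of SOD2 (0.90, adjusted p = 0.151). SOD2 rose by 1.20 with IL-1b and 1.42 with TNFa in the GFP line, against 0.45 and 0.37 in the YAP(5SA) line.

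**Figure D4:**
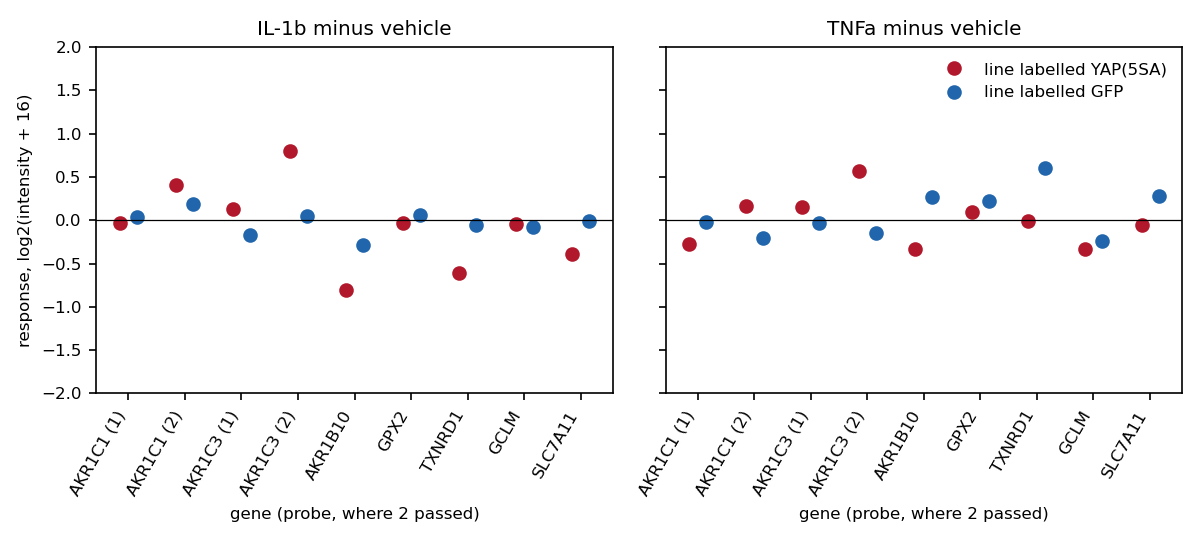
Points are the IL-1b minus vehicle (left) and TNFa minus vehicle (right) difference in log2(intensity + 16) of each of the 9 member probes past the filter, YAP(5SA) (red) left of GFP (blue). Responses lie between -0.80 and 0.80, smaller than the line differences of the AKR genes and GPX2.

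The genes whose profile over the 6 arrays was nearest to that of AKR1C1, by root mean square distance of log2 values centred on each gene's mean, were INHBB (0.19), FGL1 (0.21), VCAN (0.26), SPP1 (0.30) and NOSTRIN (0.32). All 5 had line differences between -4.59 and -5.07. Nearest to GPX2 were MMP7 (0.32), NTS (0.40), CEACAM6 (0.40), THSD7A (0.45) and TCIM (0.47), with line differences between -6.15 and -7.59. The YAP(5SA) levels of MMP7, CEACAM6, THSD7A and TCIM lay under a log2 of 7.794 on all 3 arrays, CEACAM6 at 5.09, 4.44 and 4.0, so these sizes depend on the pseudocount. The same holds for NOSTRIN. With 6 arrays in 2 lines, this measure is set mainly by the size of the line difference.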

How the data were processed

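The table holds linear probe intensities as deposited by the authors, background-subtracted in the sense that some lie below 0. Trizol RNA was amplified by an Eberwine method and the product was labelled with Cy5, per the labels' protocols. The scanner and the scaling are not given in the sources consulted. Of 28264 probes, 25893 carried 1 gene in the platform annotation, 2371 carried none and 0 several. Symbols were updated through the RefSeq gene table.

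Values below 0 were set to 0 and log2(intensity + 16) taken, a scale on which changes of dim genes look smaller than they are. The dimmest 40% of named probes by mean log2 were left out, and the brightest remaining probe stood for its gene. Limma 3.58.1 in R 4.3.3 fitted treatment and line additively over the 6 arrays, with Benjamini-Hochberg adjustment at 0.05. The fit has 2 residual degrees of freedom and 34.3 from the prior, so the variance behind each p is mostly pooled over genes. A gene's own part is how far its line difference varies between treatments, not a spread between replicates. The number of arrays limits the precision. The rule for named genes took all members, every called gene of a list, up to 5 genes per list with the largest difference, and the 5 genes nearest to AKR1C1 and to GPX2.

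The members and lists were chosen with earlier results of these data known. The filter first ranked probes by mean intensity. Ranking by mean log2 replaced it after those results had been seen, and the first form is kept as an alternative.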

Additional observations from a re-analysis of the deposited data

How the results depend on the processing

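Alternatives were quantile normalization, median centring, no filter or 60% left out, pseudocounts of 1 and 64, the mean of all probes, eBayes with trend and robust estimation, each array left out, and, chosen after seeing the data, probes ranked by mean intensity. The pairs named here are the arrays of both lines under the same treatment, which the model already matches. No other pairing was possible, because no condition was repeated and replicate numbers pair nothing. Line differences are the same whichever array of a pair is dropped. The other NRF2 targets called lower numbered 13, and 8 to 13 with an array left out; those called higher numbered 1, against 0 with no filter, with 60% left out and with any array left out. Genes called lower numbered 1101, against 689 with 60% left out and 526 to 1479 with an array left out. Genes called higher numbered 976, and 497 to 931 with an array left out. The lowest of these counts, 526 and 497, came with an IL-1b array left out. Genes called with IL-1b numbered 292, against 58 with no filter, 80 with the mean of probes and 455 with trend and robust, and 58 to 692 with an array left out. Ranking by mean intensity gave 234. Genes called with TNFa numbered 95, against 36 with no filter, 45 with the mean of probes and 50 to 129 with an array left out. Median centring gave 1409 genes higher and 954 lower, and quantile normalization 1164 higher and 1075 lower. Members called with either cytokine stayed at 0 in every alternative. The mean of all probes gave -4.64 for AKR1C1 and -4.27 for AKR1C3. The cause of these shifts was not tested.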
